A study of Bos taurus with 4 samples.

Results

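Interferon tau is the secreted signal by which the ruminant conceptus announces itself to the mother, and it is made by the trophectoderm, the outer cell layer of the blastocyst. Like other type I interferons it binds the receptor chains IFNAR1 and IFNAR2, and the receptor kinases JAK1 and TYK2 then activate STAT2, which works with IRF9 to switch on interferon-stimulated genes such as ISG15, MX1 and MX2. The members were all array probes whose annotated gene symbol was IFNT, IFNAR1, IFNAR2, ISG15, MX1, MX2, IRF1, IRF2 or STAT2. They were 12 of the 43794 probes and all 9 symbols had at least 1, with 3 probes for IFNAR1 and 2 for ISG15.

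The study asked how the way a bovine embryo is cryopreserved as a compact morula affects the transcripts of the blastocyst that develops from it. RNA came from pools of expanded blastocysts that were produced in vitro, with the semen of 1 bull by the methods. The labels give 7 beef-breed embryos per pool at 7 days post fertilization. By the methods, however, day 7 is when the morulae were collected, and the expanded blastocysts came after further culture. The methods also give the pool size as a range up to 7 embryos. The vitrified group held 4 pools grown from morulae that were vitrified in ethylene glycol and dimethyl sulfoxide, warmed and cultured on, and the control group held 4 pools grown from morulae that were cultured on without freezing. The cryopreservation label reads Yes for both groups, whereas the treatment label and the methods give the control morulae as not frozen. Each of 4 two-colour arrays on 1 slide held 1 vitrified and 1 control pool, with the vitrified pool in the dye Cy5 on arrays 1 and 2 and in Cy3 on arrays 3 and 4. The pools are from separate in vitro fertilization cycles by the methods, but which cycle went to which array is not given. The RNA was amplified before labeling, and in pooled embryos fewer cells of a type and less RNA per cell cannot be told apart. In each reading, that is 1 dye of 1 array, 60.1% to 67.3% of the probes exceeded the background, and the ratios of 1 array against another correlated only between -0.15 and 0.18 across the tested probes, which are not independent replicates. The 4 arrays limit the precision of every value.

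Of the 12 member probes, 8 probes of 6 genes exceeded the background in 4 or more of the 8 readings and were tested with limma. The probes of IFNAR2 and IRF2 and both of ISG15 were too dim to be tested. Values are log2 ratios of vitrified over control, so that a negative value is lower in vitrified blastocysts. The probe of IFNT and 1 probe of IFNAR1 had a lower level in vitrified blastocysts with an unadjusted p under 0.05, as 4.36% of all tested probes had, and another probe of IFNAR1 had a higher one, as 3.32% had. No member passed the adjusted p, and neither did any of the 28944 tested probes (lowest adjusted p from limma 0.191). Without adjustment, the same p was reached by 961 higher and 1261 lower probes. No member reached the study's own threshold, that is 2-fold or more together with such an unadjusted p, which 0.221% of tested probes did.

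**Figure D1:**
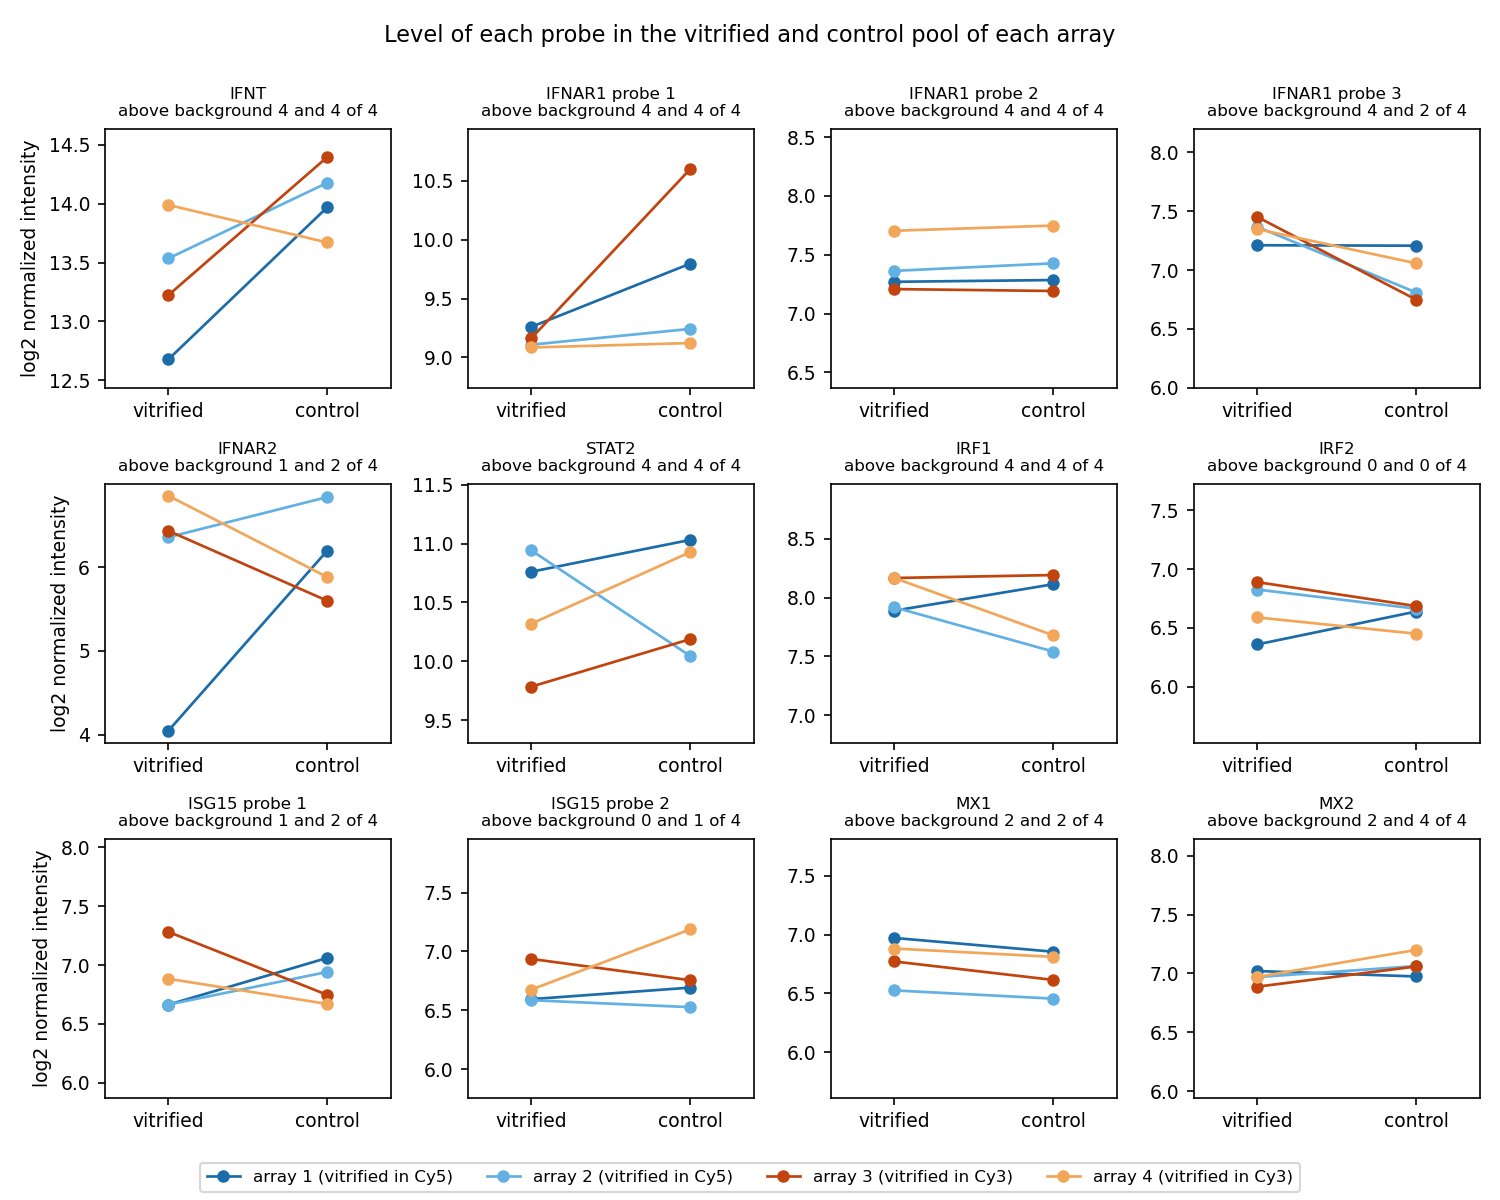
Level of each of the 12 member probes, as log2 normalized intensity, in the vitrified (left) and control (right) pool of each array, with a line joining the 2 pools of 1 array and blue for the arrays with the vitrified pool in Cy5. Panels have their own axes, since levels of different probes are not comparable. The lines of IFNT run up to the control pool on 3 arrays and down on array 4, and those of MX1 are close to flat.

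IFNT, the ligand, had log2 levels of 12.68, 13.53, 13.22 and 13.99 in the vitrified pools of arrays 1 to 4, against 13.97, 14.18, 14.40 and 13.67 in the control pools. The vitrified pool was thus the lower one on arrays 1, 2 and 3 and the higher one on array 4, and the groups overlapped. The vitrified pools also spread more widely, with a mean of 13.36 ± 0.55 in vitrified pools and 14.05 ± 0.31 in control pools (SD, n = 4 each). All 8 readings were above background. The log2 ratios were -1.29, -0.64, -1.18 and 0.32 on arrays 1 to 4, and the fitted log2 fold change was -0.70 (SE 0.24, 95% interval -1.25 to -0.15), or 1.62-fold lower in vitrified blastocysts. Its unadjusted p from limma was 0.0183 and its adjusted p 0.603. The mean ratio was -0.97 on the arrays with the vitrified pool in Cy5 and -0.43 on those with it in Cy3 (unadjusted p of the dye term from limma 0.293). The value rested on single arrays: it was -0.54 without array 1 (unadjusted p from limma 0.0816), -0.33 without array 3 (unadjusted p 0.143) and -1.07 without array 4 (unadjusted p 0.00041, adjusted p 0.0564). In such fits the only array of 1 dye orientation counts for as much as both others, and with no dye term the value was -0.50 without array 1, -0.54 without array 3 and -1.04 without array 4.

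IFNT is also not a single gene. In the RefSeq table for ARS-UCD2.0, that symbol is a synonym of both IFNT2 and IFNT3. They are among 4 interferon tau genes that were looked up by name, all on the same chromosome. Interferon tau genes under other names were not counted. The probe sequences were not among the tables used here, so which of these transcripts the probe binds was not tested.

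**Figure D2:**
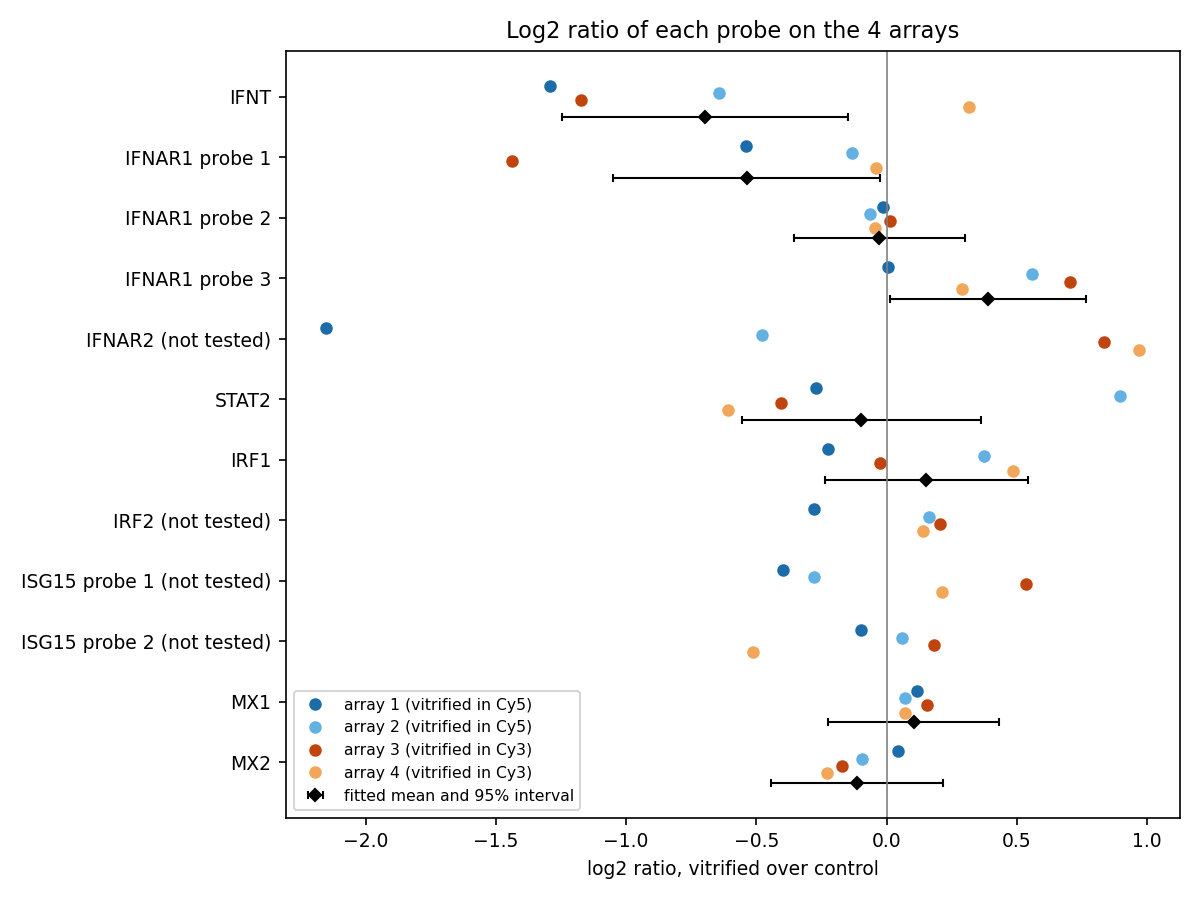
Log2 ratio of vitrified over control for each member probe on arrays 1 to 4 (coloured points) with the fitted mean and its 95% interval (black) for the 8 tested probes. The intervals of IFNT and IFNAR1 probe 1 lie below 0 and that of IFNAR1 probe 3 above it, and the points of IFNAR2 and ISG15 probe 1 split by the dye of the vitrified pool.

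The 3 probes of IFNAR1, a chain of the type I interferon receptor, did not share a direction. Probe 1, the brightest, had log2 levels of 9.26, 9.11, 9.16 and 9.08 in the vitrified pools of arrays 1 to 4, against 9.80, 9.24, 10.60 and 9.12 in the control pools. The vitrified pools lay within 0.08 (SD) of each other while the control pools spread over 0.67 (SD), and most of the difference came from the control pools of arrays 1 and 3. This probe was lower in the vitrified pool on all 4 arrays, as 7.3% of tested probes were, with a log2 fold change of -0.54 (SE 0.23, unadjusted p from limma 0.0417, adjusted p 0.642). Without array 3 it was -0.19 (unadjusted p from limma 0.351) and without array 1 it was -0.44 (unadjusted p 0.137), whereas without array 4 it was -0.89 (unadjusted p 0.000996, adjusted p 0.0751). It also missed an unadjusted p of 0.05 with normexp correction and with no background subtraction (0.0544 and 0.0557), at nearly the same size (-0.53 and -0.52).

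Probe 2 of IFNAR1 had ratios between -0.06 and 0.02 on the 4 arrays and a log2 fold change of -0.03 (SE 0.14, 95% interval -0.35 to 0.30). Probe 3 pointed the other way. It had log2 levels of 7.21, 7.37, 7.45 and 7.35 in the vitrified pools, against 7.21, 6.81, 6.75 and 7.06 in the control pools. The vitrified pools lay above the control pools without overlap, as the groups of 3.08% of tested probes did in 1 direction or the other, although on array 1 the 2 pools were nearly equal (ratio 0.005). Its log2 fold change was 0.39 (SE 0.17, unadjusted p from limma 0.0441, adjusted p 0.648), and it was above background in 4 vitrified but only 2 control readings. Under 9 of 16 other settings it was no longer at an unadjusted p under 0.05, and over all 16 its values lay from 0.25 to 0.53. Which transcripts of IFNAR1 the 3 probes bind was not tested.

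IFNAR2, the other receptor chain, was above background in 1 vitrified and 2 control readings and was not tested. Its log2 ratios were -2.15, -0.48, 0.83 and 0.97 on arrays 1 to 4. The vitrified pool was the lower one on both arrays where it was labeled with Cy5 and the higher one on both where it was labeled with Cy3, a split along the dyes that 17.1% of tested probes had in 1 direction or the other.

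STAT2, which carries the receptor's signal to the nucleus, was above background in all 8 readings. Its log2 levels were 10.76, 10.94, 9.78 and 10.32 in the vitrified pools, against 11.03, 10.04, 10.19 and 10.93 in the control pools. Array 2 was high in the vitrified pool and the other 3 arrays were low, with ratios of -0.27, 0.90, -0.40 and -0.61. The log2 fold change was -0.10 (SE 0.20, 95% interval -0.55 to 0.36, unadjusted p from limma 0.645), and its sign turned to 0.20 when array 1 was left out.

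IRF1, a transcription factor that is itself induced by interferon, had log2 levels of 7.89, 7.92, 8.17 and 8.17 in the vitrified pools, against 8.11, 7.54, 8.19 and 7.68 in the control pools. It was higher in the vitrified pool on arrays 2 and 4 and lower on arrays 1 and 3, with a log2 fold change of 0.15 (SE 0.17, 95% interval -0.24 to 0.54). IRF2, known as an antagonist of IRF1, was above background in no reading of either group, and its ratios of -0.28, 0.16, 0.20 and 0.14 are those of readings at background.

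The response genes were dim. ISG15, a ubiquitin-like protein that is joined to other proteins after interferon exposure, had 2 probes, of which the first was above background in 1 vitrified and 2 control readings and the other in 0 vitrified readings and 1 control reading. The ratios of the first were -0.40, -0.28, 0.54 and 0.22 and those of the other -0.10, 0.06, 0.18 and -0.51 on arrays 1 to 4. Neither probe was tested.

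MX1 and MX2 encode dynamin-like GTPases with antiviral activity. MX1 was above background in 2 readings of each group. It had log2 levels of 6.97, 6.53, 6.77 and 6.88 in the vitrified pools, against 6.86, 6.46, 6.62 and 6.81 in the control pools. Every array had the vitrified pool slightly higher, as 7.14% of tested probes had, with ratios between 0.07 and 0.16. The log2 fold change was 0.10 (SE 0.14, 95% interval -0.22 to 0.43), with an unadjusted p from limma of 0.492. The ratios of the 4 arrays lay within 0.04 (SD) of each other, and the model's SE is larger because it draws on the spread of all tested probes. MX2 was above background in 2 vitrified and 4 control readings, and its ratios were 0.05, -0.09, -0.17 and -0.23. Its log2 fold change was -0.11 (SE 0.15, 95% interval -0.44 to 0.22). The intervals of MX1 and MX2 leave out a change of 2-fold in either direction, but both probes read close to background, where a fold change is less certain.

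Over the 6 tested member genes, each by its brightest tested probe, the median log2 fold change was -0.10, beside 0.0023 over all 11409 tested genes. The members' medians on arrays 1 to 4 were -0.25, -0.01, -0.29 and 0.02. Of the 6 genes, 2 were lower and 0 higher at an unadjusted p under 0.05, where 5.3% and 3.5% of all tested genes were (8.8% in either direction). Over genes measured in all 8 readings the median was -0.32, as that filter leaves out MX1 and MX2.

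The genes whose ratios over the 4 arrays were most like those of IFNT were sought next, by the root mean square of the difference from its 4 ratios. Of 11408 genes, the 5 nearest were the predicted protein-coding genes LOC523509 (difference 0.103), LOC100298573 (0.155), LOC617112 (0.182), LOC781778 (0.184) and LOC100299481 (0.212). LOC523509 had ratios of -1.30, -0.51, -1.09 and 0.19 on arrays 1 to 4. LOC617112 had -1.45, -0.45, -1.04 and 0.09. LOC781778 had -1.36, -0.84, -1.11 and 0.02. All 5 were thus lower in the vitrified pool on arrays 1, 2 and 3 and level or higher on array 4, which is how they were chosen. All were above background in all 8 readings.

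The RefSeq table places these 5 genes on the same chromosome as IFNT, within the type I interferon locus, where interferon tau, omega, alpha and beta genes lie side by side. The locus from IFNE to IFNB1 holds 66 annotated genes, of which 25 had a probe by symbol with IFNT counted as 1, and 15 were tested. It was looked at because of the 5 nearest genes, so its values are a description. Of the 14 tested genes other than IFNT, the vitrified level was lower for 9 and higher for 0 at an unadjusted p under 0.05. Of all tested genes, 5.3% were lower and 3.5% higher. All 5 nearest genes were among the 9, and they had been chosen for their likeness to IFNT. The count of 9 therefore cannot be weighed against that share. Of the 14 genes, 0 passed the adjusted p (lowest adjusted p from limma 0.408). The median log2 fold change of the 14 was -0.63, and their medians on arrays 1 to 4 were -1.12, -0.47, -0.97 and 0.10. On each of arrays 1, 2 and 3, 13 of the 14 were lower in the vitrified pool, and on array 4 only 4 were.

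The 9 tested genes of the locus that were not among the nearest 5 had log2 fold changes from -0.76 to 0.19, with a median of -0.37. The vitrified level was lower for 4 of them at an unadjusted p under 0.05, where 5.3% of all tested genes were lower. The locus was looked at because of genes chosen for their likeness to IFNT. This count therefore cannot be weighed against that share either. IFN-tau-c1, another interferon tau gene, had ratios of -0.82, -0.01, -0.92 and 0.32 and a log2 fold change of -0.36 (SE 0.23, unadjusted p from limma 0.150). Its ratio on array 4 was the same as that of IFNT. LOC618943 had the smallest p of the locus, with -1.22, -0.51, -0.93 and -0.37 on the 4 arrays and a log2 fold change of -0.76 (SE 0.18, unadjusted p from limma 0.00238, adjusted p 0.408). IFNW1, an interferon omega gene, had ratios of -0.50, -0.45, -0.31 and 0.15 and a log2 fold change of -0.28 (SE 0.15). IFNAC, an interferon alpha gene, had ratios of -0.44, -0.01, 0.89 and 0.34 and a log2 fold change of 0.19 (SE 0.17). KLHL9, which lies in the locus and does not encode an interferon, had ratios of 0.06, 0.52, -0.02 and -0.02. The other 10 genes with a probe, among them IFNB1, IFNB3 and an interferon alpha gene, were too dim to be tested, and 4 of these were above background in no reading.

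The count in the locus also turned on single arrays. When array 1 was left out, 3 of the 14 genes were lower at an unadjusted p under 0.05, with or without a dye term. Leaving out array 3 gave 3 with the dye term and 7 without it, array 2 gave 10 and 8, and array 4 gave 11 in both, with a median log2 fold change between -0.89 and -0.35 and 0 genes higher in each of these fits. Interferon genes of this locus are close copies of one another, and whether a probe also binds the transcripts of its neighbours was not tested. Values of different probes there may thus share transcripts and are not independent measurements.

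**Figure D3:**
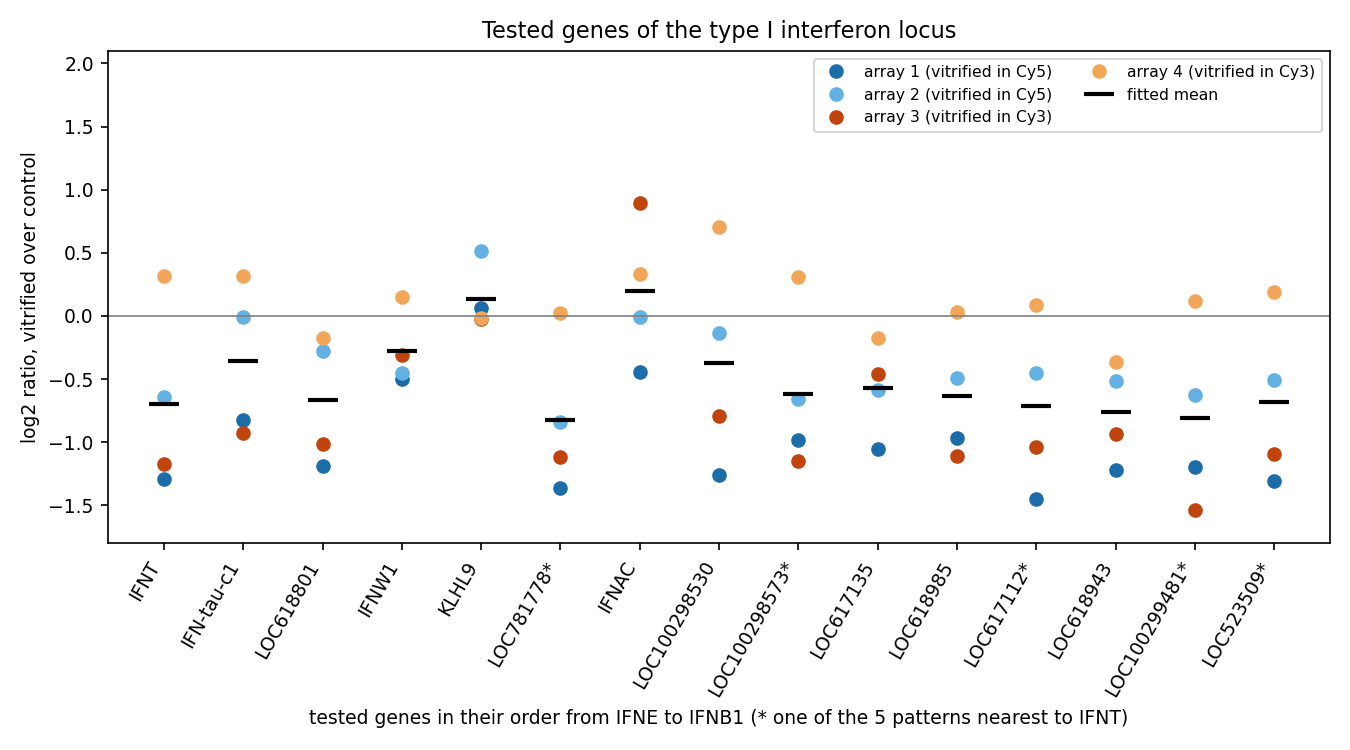
Log2 ratio of vitrified over control on arrays 1 to 4 (points) and fitted mean (bar) for the 15 tested genes of the type I interferon locus, in the order of the RefSeq table, with a star for the 5 genes nearest to IFNT. On arrays 1, 2 and 3 most points lie below 0, and on array 4 they lie around 0. KLHL9 and IFNAC have a fitted mean above 0.

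No tested member stood as near to IFNT. IFNAR1 by its brightest probe ranked 163 of 11408 in likeness (difference 0.507), and the others ranked between 4209 for MX2 and 8074 for STAT2.

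Of 10 genes for other interferons and receptor chains with a probe, 5 were tested and 0 were lower or higher at an unadjusted p under 0.05, with a median log2 fold change of -0.15, where 8.8% of all tested genes were at that p in either direction. IFNW1 had the smallest p of these (unadjusted p from limma 0.104). Of 12 tested genes of JAK-STAT transduction and its inhibitors, 0 were lower and 1 was higher, PTPN6, a phosphatase that dampens JAK kinases. PTPN6 had ratios of 0.35, 0.19, 1.19 and 0.36, all higher in the vitrified pool, as 7.14% of tested probes were. Its log2 fold change was 0.52 (SE 0.18, unadjusted p from limma 0.0162, adjusted p 0.601). The kinases JAK1 and TYK2 had log2 fold changes of -0.03 (SE 0.14) and 0.04 (SE 0.15). IRF9, the partner of STAT2, had -0.30 (SE 0.17, unadjusted p from limma 0.109), but was above background in only 1 vitrified and 3 control readings. The median of these 12 genes was 0.09, and the 1 gene called among them is a share near that of all tested genes.

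Among 5 tested genes of other interferon regulatory factors, only IRF8, a factor best known from immune cells, had an unadjusted p below 0.05. Its level was higher in the vitrified pool of all 4 arrays, as for 7.14% of tested probes. The ratios were 0.48, 0.07, 0.27 and 0.60. The log2 fold change of IRF8 was 0.36 (SE 0.16, unadjusted p from limma 0.0498, adjusted p 0.651). Of all tested genes, 3.5% were higher by the same limit. With 5 genes tested, 1 gene so near the limit cannot be told from that share. The median of the 5 genes was -0.13.

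Of 53 other interferon-stimulated genes with a probe, 36 were tested, and 2 were lower and 4 higher at an unadjusted p under 0.05, with a median log2 fold change of 0.05 beside 0.0023 for all tested genes. In the background of all tested genes, 5.3% were lower and 3.5% higher. IFI30, a lysosomal thiol reductase that serves antigen processing, was the only gene of the list at the study's threshold. It had log2 levels of 7.36, 8.13, 7.60 and 7.98 in the vitrified pools, against 8.01, 9.22, 9.95 and 8.62 in the control pools. The vitrified pool was lower on every array, as for 7.3% of tested probes, with ratios of -0.65, -1.09, -2.35 and -0.64. IFI30 had a log2 fold change of -1.18 (SE 0.25, unadjusted p from limma 0.00128, adjusted p 0.392). Its other probe had -1.04 (SE 0.24). Without array 3 the value was -0.76 (unadjusted p from limma 0.00302), and it stayed at an unadjusted p under 0.05 without each of the other arrays.

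PLAC8, which is named for its expression in the placenta, had log2 levels of 15.11, 15.18, 14.75 and 14.95 in the vitrified pools, against 15.49, 15.53, 15.67 and 15.49 in the control pools. The groups did not overlap, as those of 3.08% of tested probes did not. The log2 fold change was -0.55 (SE 0.15, unadjusted p from limma 0.00583, adjusted p 0.496). Of its 4 other probes, 3 had values between -0.80 and -0.59 and 1 had 0.16.

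The 4 higher genes were EPSTI1, LGALS3BP, GBP4 and IFI35. EPSTI1, first described as induced by stroma in breast epithelium, had a log2 fold change of 0.52 (SE 0.17, unadjusted p from limma 0.012), with ratios of 0.32, 0.90, 0.61 and 0.25. LGALS3BP, a secreted glycoprotein that binds galectin, had 0.54 (SE 0.21), with 1.37 on array 4 and 0.08 on array 2. GBP4, an interferon-inducible GTPase, also had 0.54 (SE 0.22), with 1.28 on array 2 and 0.02 on array 1. IFI35 had 0.43 (SE 0.19), with a negative ratio on array 4 (-0.21). Each of the last 3 had an unadjusted p from limma between 0.0305 and 0.0475. With a filter of all 8 readings above background, 2 genes of this list were higher, and in fits without 1 array between 1 and 5 were. Of the genes best known as responses to interferon in the uterus and blood, OAS2 was above background in 0 of 8 readings and IFIT2 in 2 vitrified readings and 1 control reading, so neither was tested. IFIT3 had ratios of 0.01, -0.31, 0.23 and 0.06 on the 4 arrays.

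**Figure D4:**
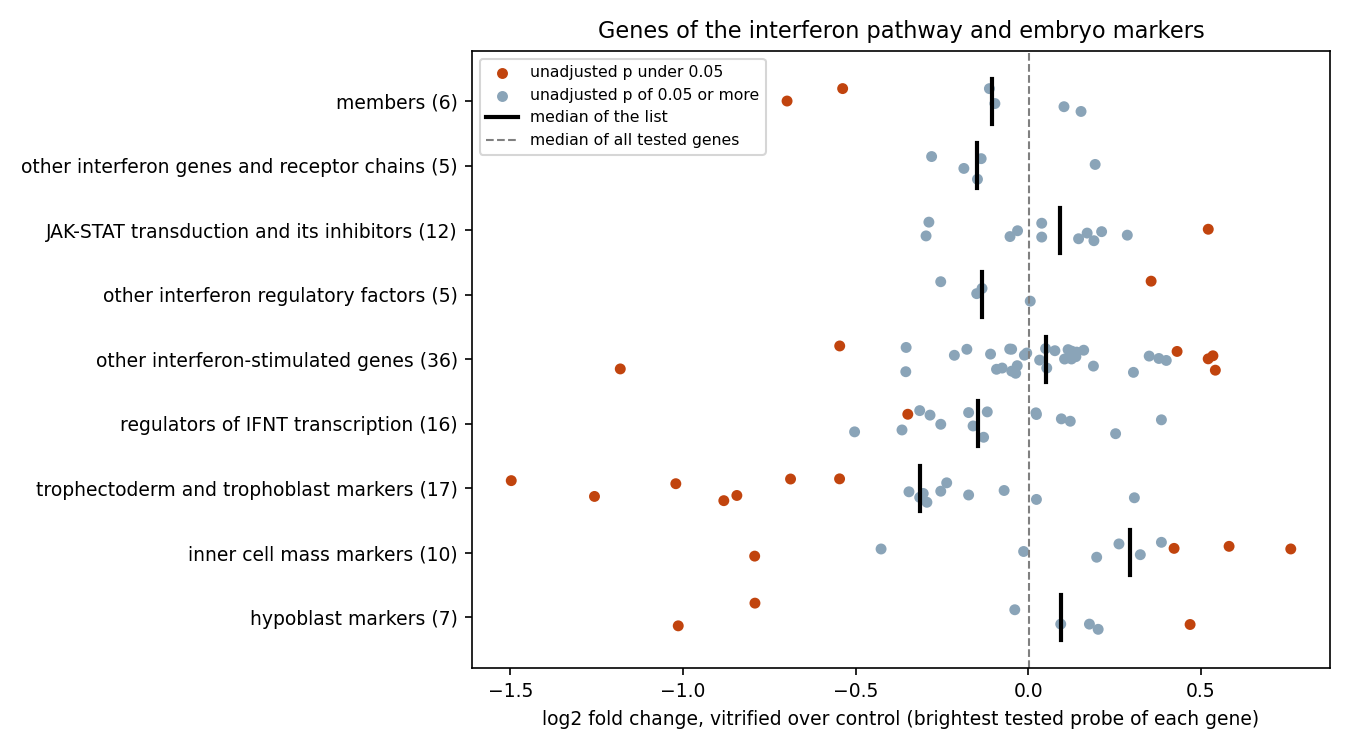
Log2 fold change of vitrified over control for each tested gene (point) of the members and of the gene lists, by its brightest tested probe, with the number of tested genes in brackets, the median of each list (bar) and the median of all tested genes (dashed line). Points in red had an unadjusted p under 0.05. The trophectoderm list has 7 such genes below 0 and 0 above it.

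Of 16 tested genes that regulate the transcription of interferon tau genes, 1 was lower and 0 were higher at an unadjusted p under 0.05. The 1 lower gene is a share near the 5.3% of all tested genes that were lower, and 3.5% were higher. The median log2 fold change of the 16 was -0.14. The lower one was ETS2, a transcription factor that binds the promoter of bovine interferon tau genes. It was lower in the vitrified pool on all 4 arrays, as 7.3% of tested probes were, with ratios of -0.54, -0.11, -0.43 and -0.32. The log2 fold change of ETS2 was -0.35 (SE 0.15, unadjusted p from limma 0.0498, adjusted p 0.651). Its log2 levels of 10.05, 9.66, 9.58 and 9.40 in the vitrified pools overlapped those in the control pools, which were 10.59, 9.77, 10.01 and 9.72. CDX2, a trophectoderm factor that acts with ETS2 on that promoter, had ratios of 0.40, -0.30, -0.67 and -0.12 and a log2 fold change of -0.17 (SE 0.18).

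Markers of the embryo's cell types were read beside the values of IFNT, which the trophectoderm makes. Of 17 tested trophectoderm and trophoblast markers, 7 were lower and 0 higher at an unadjusted p under 0.05, where 5.3% of all tested genes were lower and 3.5% higher, with a median log2 fold change of -0.31 and medians of -0.20, -0.37, -0.97 and -0.16 on arrays 1 to 4. KRT19 and PTGS2 of these 7 were picked by the study from the same arrays, and their direction is no separate support. The summed level of the list, in linear normalized intensity, was 144436 to 167176 in vitrified pools and 163711 to 251290 in control pools. Such a sum is set mainly by the brightest probes, such as those of KRT8, KRT18 and KRT19, because levels of different probes are not comparable. KRT19 had log2 levels of 13.31, 13.23, 13.54 and 14.68 in vitrified pools, against 14.77, 15.82, 15.61 and 14.55 in control pools. The sum is therefore no measure of the whole list or of cell number. Every marker was above background in some reading. Of 10 tested inner cell mass markers, 1 was lower (NANOG) and 3 were higher (SPIC, KLF4 and PRDM14), with a median of 0.29. NANOG had ratios of -0.59, -1.50, -1.34 and 0.26 on arrays 1 to 4. Its log2 fold change was -0.79 (SE 0.26, unadjusted p from limma 0.015). The summed level of the inner cell mass list was 41473 to 47025 in vitrified pools against 32055 to 41596 in control pools. H2AFZ and KLF4 were among its brightest probes. Of 7 hypoblast markers, 2 were lower and 1 was higher. APOA1, 1 of the lower ones, was also named by the study from these arrays. The higher one, PDGFRA, had ratios of 1.3, 1.3, -0.5 and -0.1 on arrays 1 to 4. That is a split along the dyes, which 17.1% of tested probes had in 1 direction or the other. The part of these markers' differences in the values of IFNT was not tested.

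Markers of cells that could be carried along were in part detected. Of 9 cumulus cell markers with a probe, 5 were tested, 1 of which was lower and 0 higher at an unadjusted p under 0.05. Of all tested genes, 5.3% were lower and 3.5% higher. The other 4 cumulus markers (AMH, HAS2, FOXL2 and LHCGR) were above background in no reading. FSHR, the follicle-stimulating hormone receptor, was the lower one, with a log2 fold change of -0.57 (SE 0.22, unadjusted p from limma 0.0298). It was above background in 3 vitrified and 4 control readings, and its ratios were 0.05, -0.88, -1.22 and -0.20 on arrays 1 to 4. CYP19A1, the aromatase, and INHBA, an inhibin subunit, were above background in all 8 readings by their brightest probe, with log2 fold changes of -0.04 and 0.03. The summed level of the cumulus list was 864 to 1019 in vitrified pools and 895 to 1101 in control pools. Of 9 blood and immune cell markers with a probe, 6 were tested and 0 were lower or higher, and ITGAM, CSF1R and CD4 were above background in no reading. PTPRC, the leukocyte common antigen, and CD68, a macrophage marker, were above background in all 8 readings by their brightest probe, with log2 fold changes of 0.21 and -0.12. HBB, a globin of red blood cells, was above background in 4 vitrified and 3 control readings and had the largest value of that list, 0.60 (SE 0.32, unadjusted p from limma 0.0908), with ratios of 1.35, 0.69, -0.95 and 1.31. The summed level of the list was 1034 to 1410 in vitrified pools and 999 to 1171 in control pools. The part of these markers in the values of IFNT and of IRF8 was not tested.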

How the data were processed

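The 4 arrays of vitrified against control blastocysts were analysed; arrays of slow-frozen embryos and PCR values were not used here. Spot intensity values, the median signal and local background in either dye, were used as deposited. The authors also deposited normalized log2 ratios (Cy5 over Cy3), which by their methods had background subtraction, lowess and quantile normalization and which matched loess ratios before the quantile step (r at least 0.9989).

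With R 4.3.3, limma 3.58.1 and the data.table package (version 1.17.8), background was subtracted with a floor of 0.5, ratios were normalized with loess and then between arrays by quantiles, and turned to vitrified over control. Of 43794 probes, 28944 were over the mean of 153 negative controls plus 2 SD in 4 or more of the 8 readings, and these were tested with a dye term (2 residual and 6.8 prior degrees of freedom), two-sided, with Benjamini-Hochberg adjustment. A gene took its brightest tested probe. Of 15229 symbols on the array, 14114 were found in the RefSeq table of ARS-UCD2.0 and 982 by a synonym. The table's build is not that of the array's design, so it gave names and neighbours only.

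Every member probe was reported. From each list of the interferon pathway, the genes with an unadjusted p under 0.05 were named, or else the gene with the smallest p, with IRF9, JAK1, TYK2, ETS2 and CDX2 in any case and the 5 genes nearest to IFNT. Genes named beyond this rule (KLHL9, IFNAC, IFN-tau-c1, LOC618943, OAS2, IFIT2, IFIT3 and the cell type markers) were chosen after their values were seen. The members and lists were chosen with earlier results of these data known. In simulated data with independent noise, 95 of 100 probes changed 2-fold reached an unadjusted p under 0.05, 45 also the study's threshold, and 0 an adjusted p under 0.05.

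The steps were repeated with each array left out, with normexp correction (offset 50) or no correction of background, with other filters, with median centring, without the quantile step, without the dye term, with an intensity trend and a robust fit, on the authors' ratios, and with a gene's probes averaged. A planned search of promoter motifs was not run.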

Additional observations from a re-analysis of the deposited data

Results flagged for a closer look

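The log2 ratio of IRF2 on array 1 was -0.28, against 0.14 to 0.20 on the other 3 arrays, a gap of 0.864 of the whole range, which is above the 95% limit of Dixon's test for 4 values. The probe was above background in no reading. It was the only one of 36 sets of 4 values (ratios, vitrified levels and control levels of the 12 probes) past that limit, and chance passes about 1 in 20.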

How the results depend on the processing

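Of 17 alternatives for IFNT, 13 kept an unadjusted p under 0.05 and 4, all fits without array 1 or 3, did not, with log2 fold changes from -1.07 to -0.33. Brightest-probe IFNAR1 kept it in 11 of 17. The members lower at an unadjusted p under 0.05 were 1 probe with normexp correction and 1 with no background subtraction, in place of 2. The members higher were 0 in place of 1 with normexp correction, no background subtraction, a filter of all 8 readings, no quantile normalization and the authors' ratios. With that filter the members' median was -0.32 and 2 other interferon-stimulated genes were higher, in place of 4. Without 1 array, with or without a dye term (the latter chosen after seeing the data), 594 to 2341 probes were lower and 529 to 1961 higher at an unadjusted p under 0.05, 17 to 202 lower and 13 to 75 higher at the study's threshold, 0 to 3 member probes lower and 0 to 1 higher. The members' median was then -0.27 to -0.016, and 2 to 3 other interferon-stimulated genes were lower and 1 to 5 higher. IFNAR1 probe 2 turned to 0.0042 with no background subtraction. STAT2 had -0.43 to 0.20 in fits without 1 array, positive without array 1 and, with no dye term, without array 3 (0.0060) and array 4 (0.07). The cause was not tested. In the locus, 9 of 14 genes were lower in each of the 7 alternatives that kept all arrays and were run there. Of the 9 genes outside the nearest 5, 4 were lower in each of these. That count also turned on single arrays, with 1 lower without array 1 and 6 without array 4, with or without a dye term. Each array pairs 1 vitrified with 1 control pool in its ratio, so the tests already used this pairing and no further paired analysis was run. Dim probes limit ISG15, MX1, MX2, IRF2 and IFNAR2.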
